A study of Bos taurus with 60 samples.

Results

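The miR-130/miR-301 family was followed in the liver of 60 steers. Its members were taken as the 5 mature miRNAs named bta-miR-130a, bta-miR-130b, bta-miR-301a, bta-miR-301b and bta-miR-454, out of 1030 mature bovine miRNAs listed in the counts, of which 811 had at least 1 count in any steer. All 5 were detected in every steer and all 5 passed the filter on low counts used below. The steers were Angus, Charolais and Kinsella Composite (KC), a crossbred population, with 20 steers per breed and 1 small RNA library per steer. Within each breed, 6 steers were labelled low-RFI, 6 high-RFI and 8 carried no RFI group. Residual feed intake (RFI) is the feed an animal eats beyond what its size and growth predict, so a low-RFI steer is feed efficient. All steers were castrated males fed a barley-based finishing ration (75% grain, 20% silage and 5% pellets with rumensin), and liver was taken at slaughter. The authors sampled all sequenced steers from both ends of the RFI range of their breed, so the steers without an RFI group were selected animals too. By the paper, the 12 with an RFI group had extreme RFI values. They were also chosen for miRNA profiles that resembled the rest of their breed, which limits how far they represent the herd.

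A microRNA represses messenger RNAs that pair with its seed, the bases near its 5′ end, so miRNAs that share a seed can share targets. The miR-130/miR-301 family is known for repressing PPARG, the nuclear receptor that drives fat cell formation, and miR-130a is known from endothelial cells and vessel growth. The miR-130b and miR-301b genes have been tied to cholesterol handling in liver through the LDL receptor and the cholesterol exporter ABCA1. In the cow genome annotation of RefSeq (assembly ARS-UCD2.0), MIR301A and MIR454 were neighbours inside the SKA2 gene, MIR130B and MIR301B were neighbours of each other, and MIR130A stood apart from the other members. The counts were made on another assembly, UMD3.1, so no coordinates are given.

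The mature sequences show what the members share and where they part, with the seed (bases 2 to 8) in capitals.
bta-miR-130a: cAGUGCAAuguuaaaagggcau
bta-miR-130b: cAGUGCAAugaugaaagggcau
bta-miR-301a: cAGUGCAAuaguauugucaaagcau
bta-miR-301b: cAGUGCAAugauauugucaaagcau
bta-miR-454: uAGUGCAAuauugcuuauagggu
Among 588 mature sequences examined, 5 carried this seed, and they were the 5 members. Counted from 1 at the 5′ end, miR-130a and miR-130b differed at 2 of 22 bases, U11A and A13G, and miR-301a and miR-301b differed at 2 of 25 bases, A10G and G11A. The neighbours miR-130b and miR-301b first differed at base 13. The sequence nearest to miR-454 outside the family was miR-628, with 8 mismatches. Since the paralogs differ at 2 bases, reads with sequencing errors could be assigned to the wrong one, and the share of such reads was not tested.

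5 further miRNAs contain 6 of the 7 seed bases and were followed beside the family. In bta-miR-148a, bta-miR-148b and bta-miR-152 the shared bases lie at positions 3 to 8, and in bta-miR-19a and bta-miR-19b at positions 2 to 7. The most abundant of them and the one that changed most between breeds are shown with the shared bases in capitals.
bta-miR-148a: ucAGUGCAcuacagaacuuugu
bta-miR-152: ucAGUGCAugacagaacuuggg

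Totals per steer ranged from 1930859 to 5703119 counts in Angus, 2237959 to 6019099 in Charolais and 3637007 to 6759381 in KC. On the scale of the levels below, CPM (counts relative to the library total after TMM scaling), 3 counts equal 0.425 to 1.46 in a steer, a floor that covers counting error only. Spearman correlations between libraries of a breed were 0.907 to 0.961. Hepatocyte markers were present in every steer, with miR-192 at 170226 CPM or more and the liver-specific miR-122 at 5203 CPM or more. These are bulk samples, so fewer cells of a type and less RNA per cell cannot be told apart.

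Family levels fell into a high pair and a low trio. Over 60 steers miR-130a averaged 236.5 ± 40.6 CPM (SD, n = 60) and miR-301a averaged 124 ± 18.5 CPM, while miR-130b averaged 8.14 ± 2.32 CPM, miR-454 averaged 5.12 ± 1.28 CPM and miR-301b averaged 1.44 ± 0.758 CPM. Among 425 miRNAs tested between breeds, ordered by mean level, miR-130a stood at place 84, miR-301a at 103, miR-130b at 220, miR-454 at 244 and miR-301b at 346. miR-130a was above miR-301a in 60 of 60 steers, with a median ratio of 1.87 (range 1.41 to 2.93). miR-301a was above miR-130b in 60 of 60 steers by a median of 15.9 times, and miR-454 was above miR-301b in 60 of 60. miR-130b and miR-454 were the neighbours that overlapped, since miR-130b was higher in 54 steers and lower in 6. Near-identical paralogs and genomic neighbours thus stood at different levels by reads. CPM counts reads, and how evenly the libraries captured different miRNAs was not tested.

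**Figure D1:**
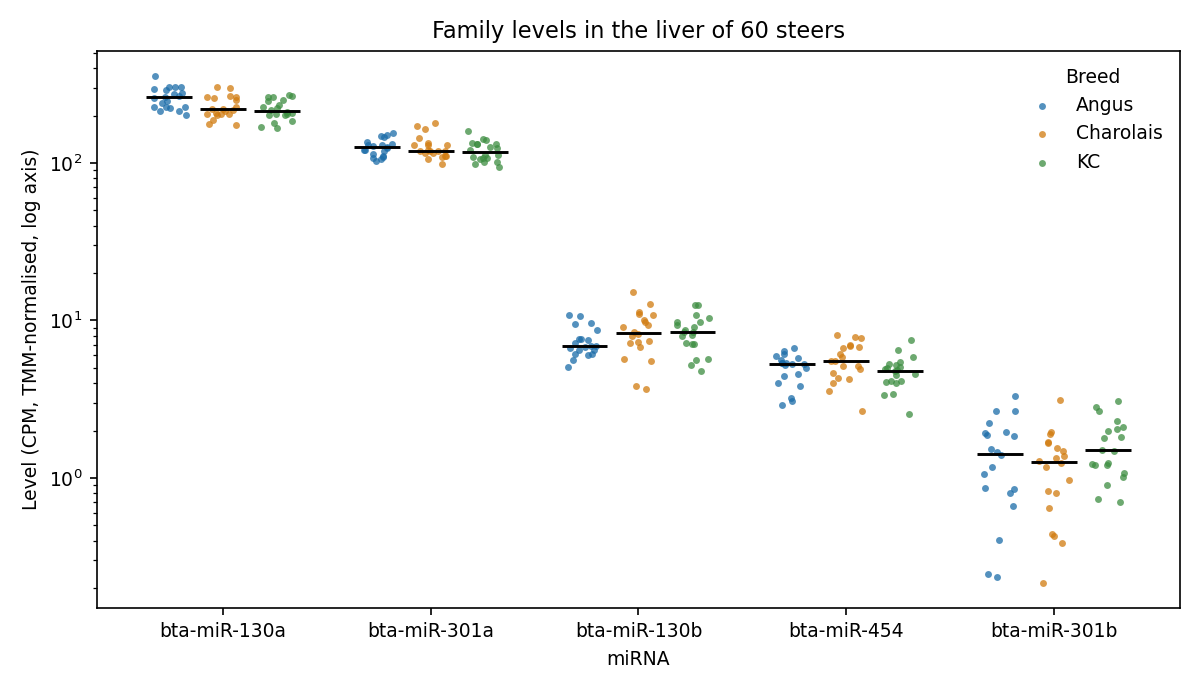
CPM (log axis) of each member in each of 60 steers, coloured by breed, with 20 points and a black median line per breed. miR-130a and miR-301a lie above the other members in every steer, and miR-301b reaches down to 0.217 CPM.

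By share, miR-130a made up 62.8% ± 3.99 (SD, n = 60 steers) of the family's CPM and miR-301a 33.3% ± 3.62. miR-130b contributed 2.19% ± 0.640, miR-454 1.38% ± 0.368 and miR-301b 0.384% ± 0.195. The members with the lowest levels rested on few reads. miR-301b had between 1 and 20 counts per steer and 3 or fewer in 13 of 60 steers, while miR-130b had 10 to 77 counts, miR-454 had 9 to 53, miR-301a had 241 to 986 and miR-130a had 1664 at most and a median of 1017. The coefficient of variation within breeds was 15.6% for miR-130a and 14.7% for miR-301a, where counting error alone gives 3.12% and 4.31%. It was 52.4% for miR-301b, where counting error alone gives 40.4%. For miR-454 the corresponding values were 23.9% and 21.2%, and for miR-130b 27.3% and 16.9%, so most of the spread of miR-301b and miR-454 was of the size that counting gives.

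Between breeds, miR-130a was the 1 member that passed a test. It was highest in Angus, at 203 to 357 CPM with a median of 262, against 174 to 306 CPM with a median of 219 in Charolais and 167 to 271 CPM with a median of 214 in KC. The ranges overlapped, but 8 of 20 Angus steers lay above every KC steer, and 17 of 20 KC steers lay below the Angus median. In the test of any difference between breeds, 1 of 5 members passed, near the 19.5% of all tested miRNAs that passed. This was miR-130a (adjusted p = 0.0150, edgeR quasi-likelihood test with Benjamini-Hochberg adjustment over 425 miRNAs). miR-130a was lower in KC than in Angus by 0.25 on the log2 scale (log2 fold change -0.25, SE 0.071, adjusted p = 0.0112 by edgeR), or 1.19 times lower, in a comparison that called 12.9% of all miRNAs. Charolais against Angus gave -0.19 (SE 0.071, adjusted p = 0.119 by edgeR), which did not pass where 2.35% of all miRNAs did. KC against Charolais gave -0.06 (SE 0.071, adjusted p = 0.698 by edgeR) in a comparison that called 16.7% of all miRNAs.

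The breed call for miR-130a did not hold in either subset of the steers. In the 36 steers with an RFI group its KC against Angus difference was -0.20 (SE 0.078, adjusted p = 0.181 by edgeR), and in the 24 steers without one it was -0.34 (SE 0.130, adjusted p = 0.153 by edgeR). The direction was the same in both sets, and neither passed. Over all miRNAs, KC against Angus called 55 with all steers, 25 in the 36 steers and 10 in the 24 steers. The sets differ in number and in how their steers were chosen, and why neither passed was not tested. Breed cannot be told apart from sequencing pool here, since the pool of each library was not given in the sources used here. By the paper's mean ages at slaughter, KC steers were the youngest and Charolais the oldest, so breed cannot be told apart from age either. The breed test also treated steers as independent, although some steers of a breed shared a sire.

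The other 4 members passed in none of the pairwise breed comparisons. miR-301a had nearly level medians of 126 CPM in Angus, 119 in Charolais and 117 in KC, and its log2 differences lay between -0.09 and 0.01 (SE 0.067). miR-130b had medians of 6.89, 8.35 and 8.44 CPM in the same order, and KC against Angus gave 0.18 (SE 0.128, adjusted p = 0.388 by edgeR). Its direction was opposite to that of its paralog miR-130a, and that contrast was not tested. miR-454 had medians of 5.30, 5.55 and 4.78 CPM, and KC against Charolais gave -0.25 (SE 0.114, adjusted p = 0.142 by edgeR). miR-301b had medians of 1.43, 1.26 and 1.49 CPM, and KC against Charolais gave 0.42 (SE 0.240, adjusted p = 0.243 by edgeR). This value was unstable, at 0.14 in the 36 steers with an RFI group, 0.92 in the 24 without one and 0.70 with counts thinned to equal depth. The median log2 difference of the members for KC against Angus was -0.07, beside -0.01 over all 425 miRNAs.

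Among the related miRNAs that share 6 seed bases, 1 of 5 passed between breeds, near the 19.5% of all tested miRNAs. It was miR-152, with means of 172 ± 26.5 CPM for Angus, 240 ± 43.6 for Charolais and 211 ± 29.4 for KC (SD over 20 steers), so its lowest mean was in Angus, where miR-130a had its highest. Its log2 difference was 0.48 (SE 0.075, adjusted p = 8.9e-06 by edgeR) for Charolais against Angus and 0.29 (SE 0.075, adjusted p = 0.00411) for KC against Angus, comparisons that called 2.35% and 12.9% of all miRNAs. miR-148a, which keeps cholesterol uptake genes in check in liver, averaged 131490 CPM in Angus, and KC against Angus gave -0.13 (SE 0.054, adjusted p = 0.108 by edgeR). The 5 family members together summed to 401 ± 44.5 CPM in the same Angus livers.

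**Figure D2:**
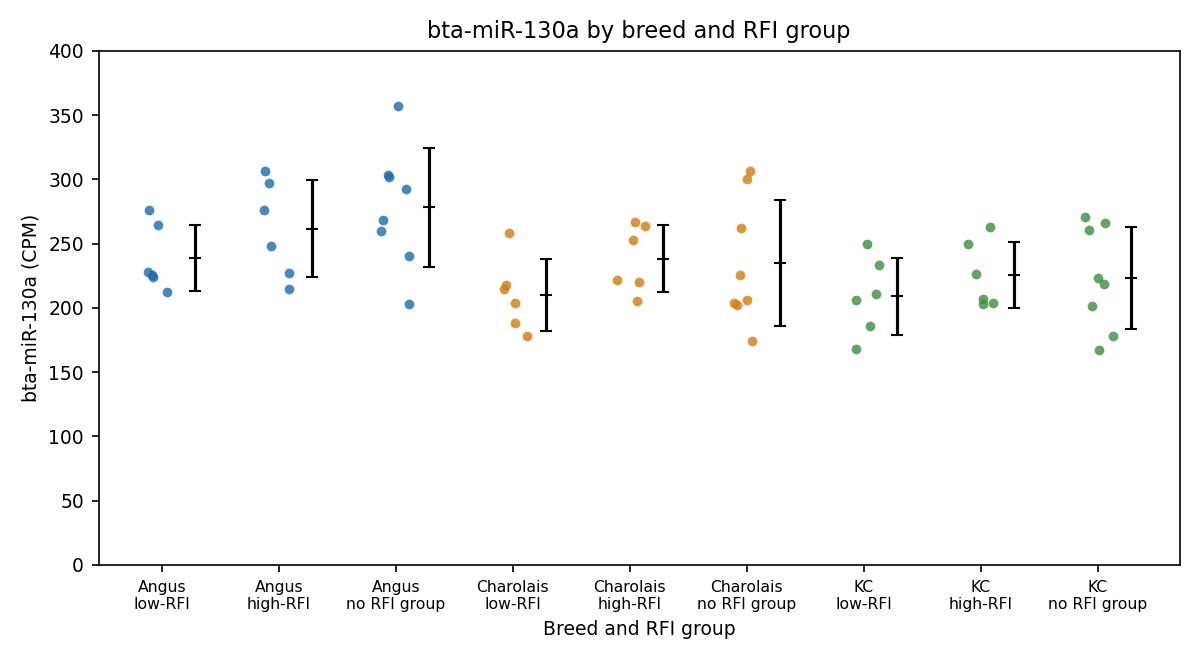
CPM of bta-miR-130a in each steer by breed and RFI group, with 6 steers per RFI group, 8 without a group, and the mean ± SD beside the points. Angus steers with high RFI or no RFI group have the highest means, Angus low-RFI steers lie level with Charolais high-RFI steers by mean (239 and 238 CPM), and in each breed the low-RFI mean lies under the high-RFI mean while the points overlap.

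Whether the family follows feed efficiency was asked within each breed, low-RFI against high-RFI, with a miRNA called at an unadjusted p under 0.05 and a fold change above 1.5. No member was called in any breed, while the same rule called 2.41% of all tested miRNAs in Angus, 1.88% in Charolais and 1.82% in KC. No member had an unadjusted p under 0.05 within a breed by edgeR's quasi-likelihood test, its likelihood-ratio test or DESeq2. At an adjusted p under 0.05, 0 of the known miRNAs tested here passed within a breed by the quasi-likelihood test. By that test 14, 19 and 14 had an unadjusted p under 0.05 in Angus, Charolais and KC. The paper used a likelihood-ratio test that also covered newly predicted miRNAs. It reports some miRNAs, known ones among them, passing its stricter threshold in each breed. The paper describes that threshold as a Bonferroni correction with a fold change above 1.5, which is unlike the adjusted p used here.

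miR-130a had lower means in the low-RFI group of all 3 breeds. In Angus the 6 low-RFI steers had 212, 224, 226, 228, 265 and 276 CPM, and the 6 high-RFI steers had 215, 227, 248, 276, 297 and 306 CPM. In Charolais the low-RFI steers ran from 178 to 258 CPM with a median of 209, and the high-RFI steers from 205 to 267 with a median of 237. In KC the low-RFI steers ran from 168 to 249 CPM with a median of 208, and the high-RFI steers from 203 to 263 with a median of 216. The groups overlapped in every breed. The log2 differences were -0.10 (SE 0.097) in Angus, -0.15 (SE 0.119) in Charolais and -0.08 (SE 0.11) in KC, and exact two-sided permutation tests over all relabelings gave p = 0.238, 0.0909 and 0.318, where the smallest possible p is 0.00216. In a single fit of the 36 steers the low-RFI difference was -0.14 (SE 0.061, adjusted p = 0.956 by edgeR, with an unadjusted p of 0.0273), and by that test 0% of 426 miRNAs passed after adjustment while 13 had an unadjusted p under 0.05. The size of this difference depended on the fit, at -0.07 (SE 0.065) with library totals only and -0.26 (SE 0.123) with sire as a block. Few sires had steers in both RFI groups, so the value with sire as a block rests on few steers.

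The remaining members had small differences with no common sign over the breeds. miR-301a gave 0.07 (SE 0.103) in Angus, -0.05 (SE 0.142) in Charolais and -0.08 (SE 0.11) in KC. miR-130b gave 0.18 (SE 0.184), 0.13 (SE 0.254) and -0.07 (SE 0.174), and miR-454 gave 0.17 (SE 0.237), 0.05 (SE 0.228) and -0.01 (SE 0.211). miR-301b gave -0.10 (SE 0.548), -0.34 (SE 0.447) and 0.02 (SE 0.351). In Charolais its low-RFI steers had 0.386, 0.429, 0.799, 0.821, 1.34 and 3.14 CPM against 0.963, 1.18, 1.66, 1.69, 1.91 and 1.95 CPM in high-RFI steers. The value rested on few counts and moved with 1 low-RFI library, replicate 3 with 14 counts. Without that library the log2 difference was -0.94 and met the call rule (SE 0.389, adjusted p = 0.934 by edgeR). With it kept and counts thinned to equal depth, the difference was -1.04 and met the rule too (SE 0.442, adjusted p = 0.997 by edgeR). No interaction of RFI group with breed passed for any member (adjusted p = 0.994 by edgeR for each), and 0% of 426 miRNAs passed that test while 16 had an unadjusted p under 0.05.

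**Figure D3:**
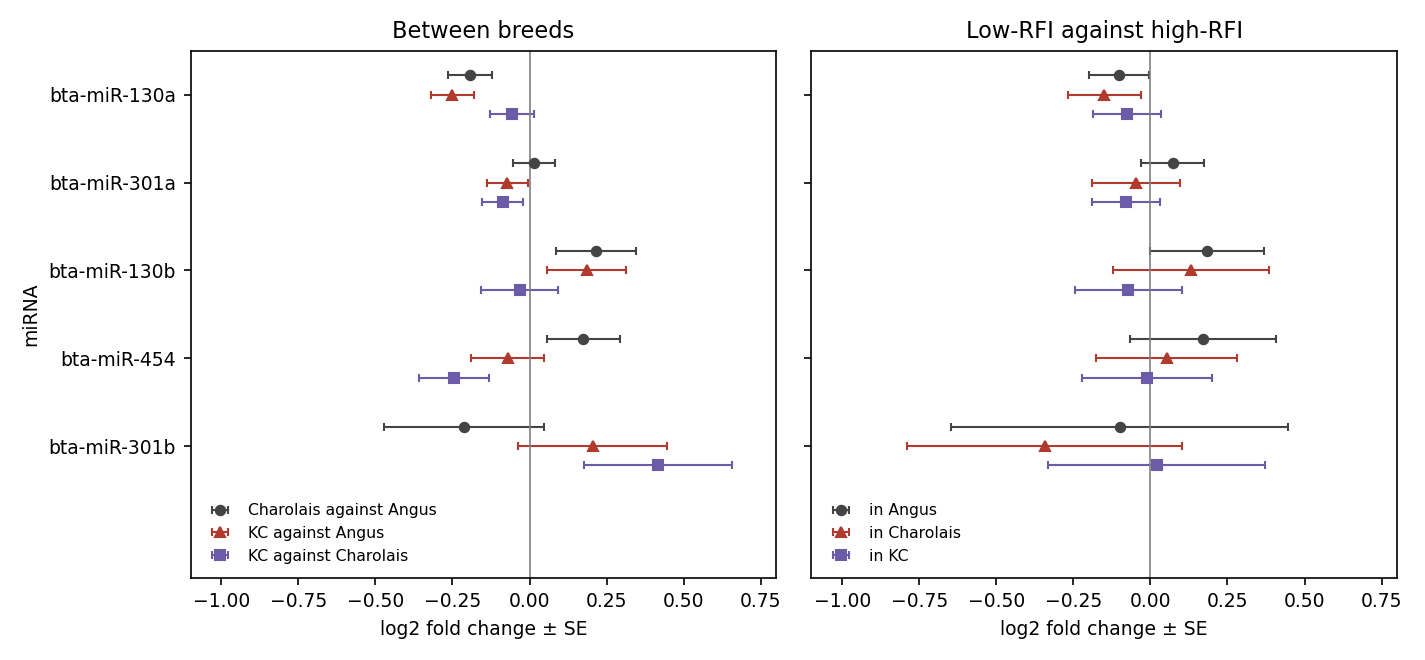
Log2 fold changes (x axis) with SE bars of the 5 members between breeds (left) and for low-RFI against high-RFI steers within each breed (right), from edgeR. On the left miR-130a lies below 0 in both comparisons against Angus, of which KC against Angus passed, and the bars of miR-301b, the member with the fewest reads, are the widest.

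Sire was considered because related steers may share regulation. The labels gave 22 named sires, and 1 KC steer had a label beginning with NA that was kept as a sire of its own. Of the sires, 9 had at least 3 steers and covered 43 steers. No member differed between these families (adjusted p from 0.686 for miR-301a to 0.995 for miR-454, edgeR), where 0.484% of 413 miRNAs passed, that is 2, and 46 had an unadjusted p under 0.05. Family means of miR-130a spanned 256 to 280 CPM over the 3 Angus families, 220 to 247 over the 4 Charolais families and 194 to 223 over the 2 KC families.

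Whether members that lie side by side in the genome vary together was asked over 60 steers on log2 CPM centred within breed. All 10 pairs of members were examined, with 100000 shuffles within breeds. The neighbours miR-301a and miR-454 had Pearson's r = 0.196 (permutation p = 0.148, adjusted 0.164) and Spearman's rho = 0.167 (permutation p = 0.208, adjusted 0.232), and the values of r by breed were -0.17 (Angus), 0.301 (Charolais) and 0.368 (KC). The neighbours miR-130b and miR-301b had r = 0.314 (permutation p = 0.0146, adjusted 0.0305) and rho = 0.314 (permutation p = 0.0156, adjusted 0.0312), with 0.340 in Angus, 0.50 in Charolais and 0.00107 in KC. With library totals alone r of the first pair was 0.416. Without the 2 steers farthest from the median r was 0.131 for the first pair and 0.238 for the second. With counts thinned to equal depth the second fell to 0.027, and miR-301b is the member with the fewest reads.

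The largest r among the 10 pairs was between miR-130b and miR-454, which lie in different places in the genome. It was r = 0.430 (permutation p = 0.00106, adjusted 0.0106) with rho = 0.457 (permutation p = 0.00048, adjusted 0.0048), and 0.415 without the 2 farthest steers. By breed, r was 0.541 for Angus, 0.608 for Charolais and 0.072 for KC. miR-130a and miR-301a, the abundant members, had r = 0.381 (permutation p = 0.0035, adjusted 0.0137) and rho = 0.369 (permutation p = 0.00475, adjusted 0.0201), and 0.439 without the 2 farthest steers, with -0.013 in Angus, 0.496 in Charolais and 0.589 in KC. miR-301a with miR-301b was positive in each breed, at 0.339, 0.433 and 0.337, with r = 0.364 (permutation p = 0.00412, adjusted 0.0137) and rho = 0.327 (permutation p = 0.0114, adjusted 0.0285). Over all 90100 pairs of tested miRNAs the median rho was 0.003 and the middle 90% of pairs ran from -0.26 to 0.284. Members share library and normalisation, and their correlations with library total lay between -0.11 and 0.042.

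**Figure D4:**
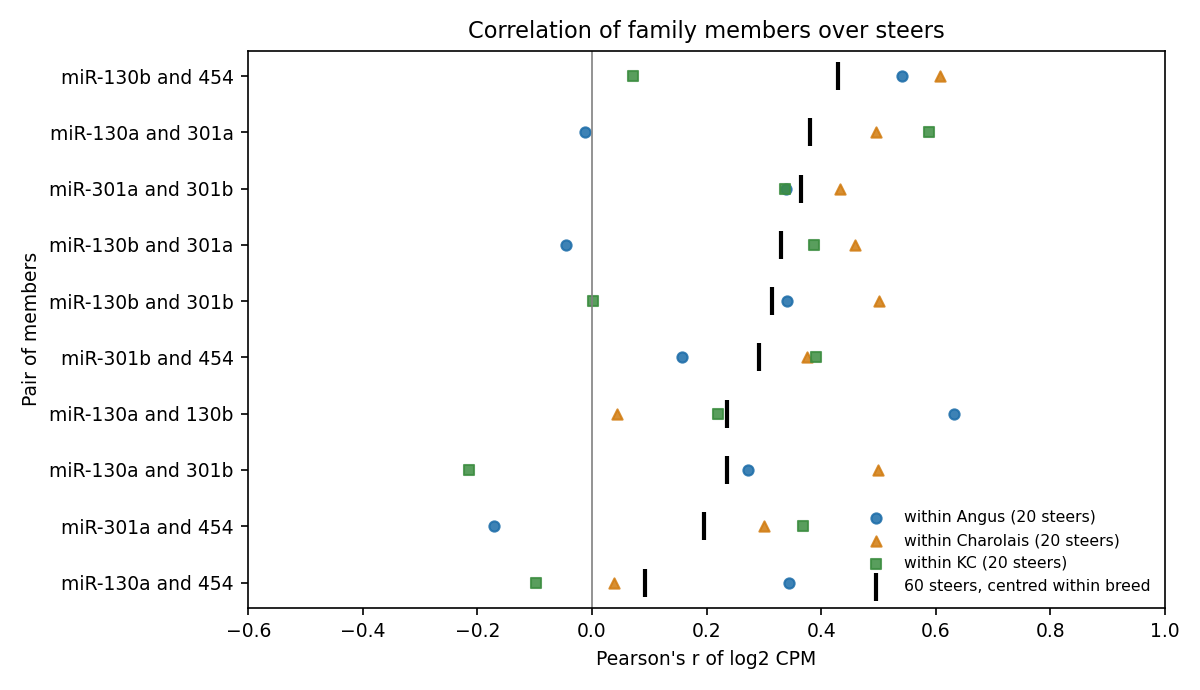
Pearson's r of log2 CPM for the 10 pairs of members, with a black bar for 60 steers centred within breed and coloured symbols for the 20 steers of each breed. The pooled values are all positive, and for several pairs a breed lies near or below 0.

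The miRNAs most like each member were listed by rho over the 60 steers, as a description. miR-130a was most like let-7i (rho 0.656), miR-432 (0.561) and miR-143 (0.552), the last a miRNA of smooth muscle and other mesenchymal cells. miR-301a was most like miR-381 (0.536), miR-411a (0.517) and miR-410 (0.491). miR-130b was most like miR-454 (0.457), miR-21-5p (0.402) and miR-21-3p (0.373), while miR-454 was most like miR-130b, miR-2474 (0.439) and miR-507b (0.407), and miR-301b was most like miR-296-3p (0.443), miR-1249 (0.405) and let-7i (0.382).

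Summed markers of other liver cell types were set beside each member, giving 30 relations. 1 of 30 passed at an adjusted p under 0.05, miR-130a with 6 mesenchymal markers, at r = 0.563 (permutation p = 1e-05, the smallest that the shuffles can give, adjusted 0.0003) and rho = 0.552 (permutation p = 1e-05, adjusted 0.0003). By breed, r was 0.576 for Angus, 0.474 for Charolais and 0.665 for KC, and 0.504 without the 2 farthest steers. The size of this relation differed with the scaling, and with library totals alone r was 0.235 (permutation p = 0.0749). miR-143 made up 98.9% of the marker sum, and without it r was 0.467 (permutation p = 0.00019) with TMM scaling. The sum without miR-143 was not examined with library totals, and why r differed was not tested. The mesenchymal sum ranged from 116154 to 304899 CPM in Angus, 132177 to 401450 in Charolais and 122403 to 263500 in KC, none of its 6 markers was at 0, and 0 of 6 passed between breeds (lowest adjusted p = 0.173 by edgeR). Its part in the levels of miR-130a was not tested.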

How the data were processed

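Small RNA of liver from 60 steers was sequenced by the authors, who trimmed reads with cutadapt 1.16 (after bcl2fastq 2.17.1.14 and FastQC 0.11.7), removed other small RNAs, aligned with Bowtie 1.1.1 to UMD3.1 and counted known miRNAs with miRDeep2. The deposited values are raw read counts per mature miRNA and precursor, without normalization. Counts from several precursors were averaged here, as the authors did, although each member has 1 precursor. The rounded counts were tested with edgeR 4.0.16 (R 4.3.3), using TMM and the quasi-likelihood test, on miRNAs that reached 1 CPM in 10 or more steers (breeds, and sires with 3 or more steers) or in 6 or more (RFI groups). Levels are CPM with TMM over 60 steers, and each fit used TMM over its own steers. Log2 CPM used a prior count of 0.5. Exact permutation tests were made for 15 member and breed combinations, with p not adjusted. P-values measure the spread between steers. Apart from the fits with sire terms, steers were treated as independent although some shared a sire, and no breed fit accounted for sire. Mature sequences came from a supplementary table of the study. Members were named by rule as all 5, with the 3 miRNAs of highest rho for each. The members and lists were chosen with earlier results of these data known. Alternatives covered the test (DESeq2 1.42.0, likelihood ratio), scaling, filter, precursors, depth, steers and sires. The fits were tested on simulated data. Correlations and figures were made in Python 3.11.15 (scipy 1.17.1, numpy 2.4.6, matplotlib 3.10.9, pandas 2.3.3).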

Additional observations from a re-analysis of the deposited data

Results flagged for a closer look

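In 45 groups of 6 or 8 steers, 4 had a steer whose gap to its nearest neighbour was large against the group's range by Dixon's criterion, and chance flags about 1 in 20 groups. bta-miR-130b reached 10.8 CPM in an Angus low-RFI steer, where the other steers had 6.01 to 7.59. bta-miR-301a reached 172.7 CPM in a Charolais high-RFI steer, against 110.8 to 133.1. bta-miR-301b reached 3.14 CPM in a Charolais low-RFI steer, against 0.386 to 1.34. bta-miR-454 was at 4.02 CPM in an Angus steer without an RFI group, against 5.30 to 6.42.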

How the results depend on the processing

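Of the log2 differences of members recomputed without leaving out a steer, 351 kept their direction and side of the threshold, 29 changed sign, 2 lost and 1 gained a call. Some of the 351 could not change, since leaving out entries listed for KC alone left the RFI fits in Angus and Charolais as they were. Each member has 1 precursor, so summing precursors left its own counts unchanged. The sign changes were in differences that had not passed. miR-130a passed between breeds in the 9 alternatives that used all steers (adjusted p from 0.00786 to 0.045 by edgeR or DESeq2) and KC against Angus did too (0.00671 to 0.0341). With the 36 or the 24 steers alone, which are fewer samples, 0 members passed in either test. Calls over all miRNAs fell too. The test of any breed difference called 83 with all steers, 50 with the 36 and 11 with the 24. KC against Angus called 55, 25 and 10 in the same order. For low-RFI against high-RFI in Charolais, thinning called 1 member, miR-301b (-1.04), and leaving out a steer gave 0 to 1 members, and in Angus and KC it gave 0. The signs that changed, with causes not tested, were as follows. With the 24 steers, Charolais against Angus was -0.031 for miR-130b and -0.082 for miR-301a, and KC against Charolais 0.13 for miR-130b. With the 36 steers, miR-301b was 0.14 for Charolais against Angus and miR-130a 0.00084 for KC against Charolais. With library totals only, miR-301a was -0.022 for Charolais against Angus, 0.022 for RFI in Charolais and 0.017 for RFI across breeds, miR-130a 0.0093 and miR-130b 0.028 for KC against Charolais, and miR-454 0.016 for RFI in KC. After thinning, miR-454 was -0.012 for Charolais against Angus and 0.55 for RFI in KC, where miR-130b was 0.25 and miR-301b -0.20. In KC, miR-301b was also -0.0027 with RLE, -0.0043 with summed precursors and -0.0073 in a single fit of the 36 steers. With sire as a block, RFI in Angus was -0.054 for miR-130b and -0.34 for miR-454, RFI in Charolais -0.99 for miR-130b, 0.065 for miR-301a and -0.079 for miR-454, RFI in KC -0.57 for miR-301b and 0.31 for miR-454, and RFI across breeds -0.50 for miR-130b, 0.017 for miR-301a and -0.065 for miR-454. Few sires had steers in both RFI groups, so these values with sire as a block rest on few steers in each breed. Without KC, miR-301a across breeds was 0.0036. Leaving out each steer in turn gave, for miR-130a, -0.17 to -0.059 in Angus, -0.19 to -0.10 in Charolais and -0.16 to -0.027 in KC, for miR-301b -0.51 to 0.14 in Angus and -0.16 to 0.31 in KC, for miR-454 -0.047 to 0.13 in Charolais and -0.12 to 0.093 in KC, for miR-301a -0.030 to 0.10 in Angus and -0.12 to 0.061 in Charolais, and for miR-130b -0.038 to 0.30 in Charolais. The r of miR-301a with miR-454 was 0.416 with library totals only, 0.368 within KC and -0.17 within Angus, and that of miR-130b with miR-301b was 0.50 within Charolais, 0.00107 within KC and 0.027 after thinning. A prior count of 2 and summed precursors left both near their values. The filter of 10 counts in every steer removed miR-301b from every fit and miR-454 from all but those of RFI in Charolais (0.058) and KC (-0.022). The mesenchymal alternatives were chosen after seeing the data. The number of reads limits what can be said of miR-301b.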
